A study of Solanum lycopersicum with 120 samples.

Results

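FLOWERING-PROMOTING FACTOR 1 (*FPF1*, Solyc01g066980, Arabidopsis homolog AT5G24860) and ROOT MERISTEM GROWTH FACTOR 6 (*RGF6*, Solyc08g078840, homolog AT3G60650) are 2 of the 34075 tomato genes counted in this study, on chromosomes 1 and 8 as their identifiers show. The names are those of the tomato gene annotation and the 2 rows were found by identifier in both count tables. They were chosen by the measured fold change of their RNA in a low ratio of red to far-red light (low R/FR) in wild-type (WT) plants at 6 h, that of *FPF1* in the cotyledons and first leaf and that of *RGF6* in the hypocotyl. Their values in those organs at 6 h are therefore given as a description with no test, and the tests below use other times, other organs and the mutants. Low R/FR was given for 3, 6 or 24 h as white light at 24 °C with added far-red light (24FR, R/FR of 0.6, about 200 µmol m-2 s-1), and plants kept in white light at the same temperature (24WL) were collected beside them. All plants were of the M82 background, which carries the *sp* allele of *SELF PRUNING*. They were 12 days old at the start in long days, and each sample pooled 1 organ of 4 seedlings. WT cotyledons, first leaf, hypocotyl and epicotyl were collected at the 3 times in 24FR and 24WL. The same organs of *slpif8a*, mutated in the gene of the transcription factor SlPIF8a, and of *slpifq*, mutated in *SlPIF4*, *SlPIF7a*, *SlPIF7b* and *SlPIF8a*, were collected at 6 h in both lights, each mutated gene being represented by a single CRISPR allele. Every group held 3 samples, 120 in all. The far-red light came on 2 h after the start of the day, so the 3, 6 and 24 h samples were taken at different hours of the day and the length of exposure cannot be told apart from the hour or from the age of the plants.

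A low R/FR is the signal by which plants sense neighbours. It inactivates phytochrome B and so releases the PHYTOCHROME-INTERACTING FACTORS (PIFs), which switch on genes for auxin synthesis in leafy organs and for growth of the stem. FPF1 proteins are small plant proteins, known in Arabidopsis for advancing flowering when overexpressed and linked there to the response to gibberellin. RGF peptides, also called GOLVEN or CLE-like peptides, are secreted signals that are cut from a longer precursor and sulfated on a tyrosine. In Arabidopsis they maintain the root meristem through receptor kinases and the PLETHORA transcription factors, and members of the family also act in gravitropic bending. Neither role was measured here, where the samples are shoot organs and the values are RNA counts.

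Counts per library over all genes ranged from 15905765 to 33913236. Levels are given as CPM, read counts scaled to an effective library size that corrects for differences in RNA composition, separately in the WT time course and in the genotype table. Levels of the 2 genes are not compared with each other, since CPM depends on the length of the transcript. The upper limit that a count of 0 allows, 3 counts in a library, corresponded to between 0.0710 and 0.222 CPM and is called the floor. Both genes passed the filter on low counts (above 5 CPM in at least 3 libraries), but only through the groups in which they were high. For the filter alone, CPM was taken on the uncorrected library size. A gene was called when its adjusted p was under 0.05 and its log2 fold change was beyond 1 in size. All 72 libraries of each table were closest to a group mean of their own organ. The other libraries of the same group were among those means, so this check could not detect a swap of whole groups. The CRISPR alleles left transcript behind, with *SlPIF8a* RNA in *slpif8a* at 0.600 to 1.47 times the WT group means, so RNA levels do not check the mutations.

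*FPF1* RNA was present in the leafy organs of plants in low R/FR and nearly absent everywhere else. In WT cotyledons it was counted in every 24FR library at every time, and 8 of the 9 24WL libraries of that organ held no count. In such samples of whole organs, RNA in fewer cells and less RNA per cell cannot be told apart. At 3 h the 24FR cotyledons held 6.00, 13.9 and 14.2 CPM (98, 207 and 246 counts), against 0 in all 3 24WL libraries. With 24WL taken at its floor, 24FR was at least 58.0-fold higher (adjusted p = 4.83e-10 by edgeR's quasi-likelihood test, n = 3 against 3). Of all genes tested in that comparison, 0.819% were called higher. At 6 h, the time that chose the gene, the 24FR cotyledons held 27.3, 13.95 and 13.0 CPM (552, 281 and 221 counts), against 0, 0 and 0.048 CPM in 24WL, where 1 count was found in 1 library (1.56% of genes higher). At 24 h they held 6.85, 8.91 and 11.1 CPM (110, 147 and 175 counts), against 0 in all 3 24WL libraries, at least 45.1-fold higher (adjusted p = 4.63e-10, 1.59% of genes higher). The level in 24FR at 24 h differed from that at 3 h by -0.34 ± 0.332 on the log2 scale (SE, adjusted p = 0.42), within the spread between samples. At 24 h the 24FR cotyledons also had lower RNA of 12 of the 14 chlorophyll a-b binding genes used as markers of green tissue (0.979% of all genes lower). The summed level of the 14 was 2816 to 3429 CPM against 6972 to 7641 CPM in 24WL. At 3 and 6 h none of the 14 was called in cotyledons, where 0.464% and 1.52% of all genes were lower. Whether the change in green tissue markers had a part in the *FPF1* value at 24 h was not tested.

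**Figure D1:**
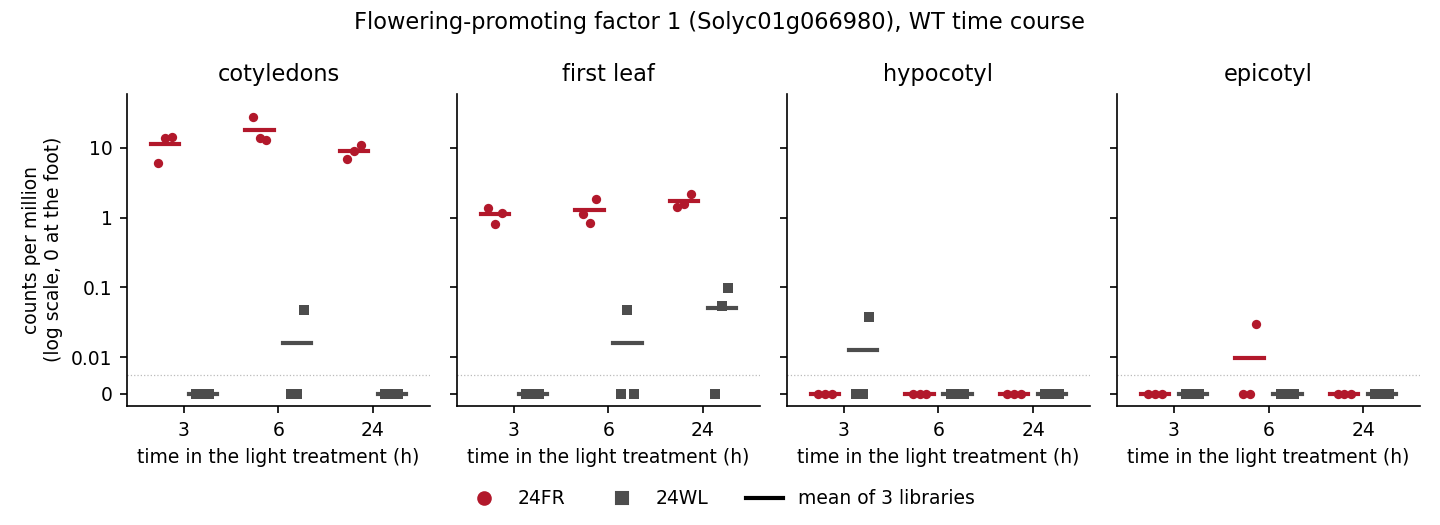
*FPF1* level (CPM, log axis with 0 at the foot) in each WT library by organ and time, 24FR left of 24WL, with bars at the group means. All 9 libraries of 24FR cotyledons lie between 6.00 and 27.3 CPM and those of 24FR first leaves between 0.82 and 2.15 CPM, while no 24WL library and no stem library exceeds 2 counts.

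In the first leaf, the same contrast stood at a lower level. At 3 h the 24FR first leaves held 1.35, 0.82 and 1.16 CPM (25, 17 and 22 counts), against 0 in all 3 24WL libraries, at least 6.42-fold higher (adjusted p = 9.57e-05, 0.492% of genes called higher). At 6 h they held 1.11, 0.84 and 1.88 CPM, against 0, 0.048 and 0 CPM in 24WL (1.04% of genes higher). At 24 h they held 1.42, 1.58 and 2.15 CPM (27, 34 and 44 counts), against 0, 0.054 and 0.098 CPM in 24WL (0, 1 and 2 counts). The ratio of the summed counts, scaled to library size, was 34.3, with an exact 95% interval of 11.4 to 169 for counting error only (adjusted p = 2.38e-05, 0.607% of genes higher). No 24FR library overlapped a 24WL library of the first leaf at any time. Within 24FR, the cotyledons held 10.3 times the level of the first leaf at 3 h (log2 difference of 3.36 ± 0.393, adjusted p = 3.01e-08, 9.37% of genes higher). At 24 h they held 5.19 times its level (2.38 ± 0.372, adjusted p = 3.11e-06, 8.54% of genes higher). These comparisons between organs in 24FR were chosen after seeing that the 24WL libraries held hardly a count, which leaves no base from which to test a difference between light responses.

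The stem organs held no *FPF1* signal that could be told from 0. Of the 36 hypocotyl and epicotyl libraries of the WT time course, 34 held no count and none held more than 1. In 24FR the cotyledons exceeded the floor of the hypocotyl at least 107-fold at 3 h and at least 78.7-fold at 24 h. The first leaf exceeded that of the epicotyl, the stem segment above the cotyledons, at least 11.4-fold at 3 h and at least 17.9-fold at 24 h. Ordered by level, the WT groups ran from 24FR cotyledons at 6 h (18.1 ± 7.98 CPM, SD, n = 3) through those at 3 h (11.4 ± 4.64 CPM) and 24 h (8.94 ± 2.11 CPM), whose libraries overlap. The 24FR first leaves followed at 24 h (1.72 ± 0.383 CPM), 6 h (1.28 ± 0.537 CPM) and 3 h (1.11 ± 0.269 CPM), again overlapping one another, and the other 18 groups lay at or under the floor.

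*RGF6* behaved differently in stem and leafy organs. In the stem it was near 0 in 24WL at every time, was not distinguishable between lights at 3 h and was higher in 24FR at 6 and 24 h. In the hypocotyl at 3 h, the 24FR libraries held 2, 2 and 0 counts and the 24WL libraries 1, 1 and 2, all under the floor (0.71% of genes were called higher). At 6 h, the time that chose the gene, the 24FR hypocotyls held 1.498, 0.625 and 1.24 CPM (45, 20 and 45 counts), against 0 in all 3 24WL libraries, at least 11.0-fold higher (2% of genes higher). At 24 h they held 2.23, 1.90 and 4.61 CPM (59, 54 and 135 counts), against 0.032, 0 and 0.098 CPM in 24WL (1, 0 and 3 counts). The lowest 24FR library at 24 h stood far above the highest 24WL library, and the log2 fold change was 5.89 ± 0.509 (SE, adjusted p = 1.77e-13, 2.06% of genes higher). Within 24FR, the hypocotyl level at 24 h was higher than at 3 h by 5.87 ± 0.510 on the log2 scale (adjusted p = 6.36e-14, 4.41% of genes higher).

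The epicotyl reached a higher level and reached it late. At 3 h the 24FR epicotyls held 0.194, 0.056 and 0.160 CPM (6, 2 and 5 counts), against 0.134, 0.060 and 0.132 CPM in 24WL (4, 2 and 4 counts), a log2 difference of 0.30 ± 0.697 (adjusted p = 0.939, 0.429% of genes higher). At 6 h they held 0.440, 1.02 and 0.561 CPM (18, 43 and 19 counts), against 0, 0.025 and 0.052 CPM in 24WL (0, 1 and 2 counts). The ratio of summed counts was 25.9, with a counting interval of 8.56 to 128 (adjusted p = 2.56e-07, 1.27% of genes higher). At 24 h the 24FR epicotyls held 7.51, 6.70 and 12.4 CPM (253, 240 and 388 counts), against 0.127, 0.153 and 0.202 CPM in 24WL (4, 5 and 7 counts). The log2 fold change was 5.73 ± 0.381 (adjusted p = 1.03e-17, 2.6% of genes higher), and 24FR and 24WL libraries did not overlap at 6 or at 24 h. At 24 h in 24FR the hypocotyl was below the epicotyl by 1.60 ± 0.267 on the log2 scale (log2 difference of -1.60, adjusted p = 8.16e-07, 8.82% of genes lower). Their light responses at 24 h were not distinguishable (hypocotyl minus epicotyl, 0.16 ± 0.585, adjusted p = 0.886). The sign depended on the input and test, since limma on log2(CPM + 1) of the authors' normalized levels called a smaller response in the hypocotyl (-1.20, adjusted p = 2.71e-04). None of the 14 green tissue markers was called in the epicotyl at 24 h (summed level of 775 to 868 CPM in 24FR and 1003 to 1082 CPM in 24WL). Of all 17469 genes tested there, 1212 were called in either direction, 455 of them higher. *SlYUC9*, an auxin synthesis gene of the leafy organs, held 0.059 to 0.196 CPM in 24FR epicotyls at 24 h and 0 to 0.095 CPM in 24WL. At that time it held 3.64 to 5.12 CPM in 24FR cotyledons and 1.95 to 2.29 CPM in 24FR first leaves. In the hypocotyl 3 of the 14 marker genes were lower in 24FR at 6 h and 2 at 24 h, and none was higher at either time. Of all 17469 genes, 780 were called there in either direction at 6 h (349 higher) and 739 at 24 h (359 higher). The summed level of the 14 in the hypocotyl at 24 h was 1207 to 1225 CPM in 24FR and 1449 to 1741 CPM in 24WL. Whether a change in green tissue markers had a part in the *RGF6* values of the stem organs was not tested.

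**Figure D2:**
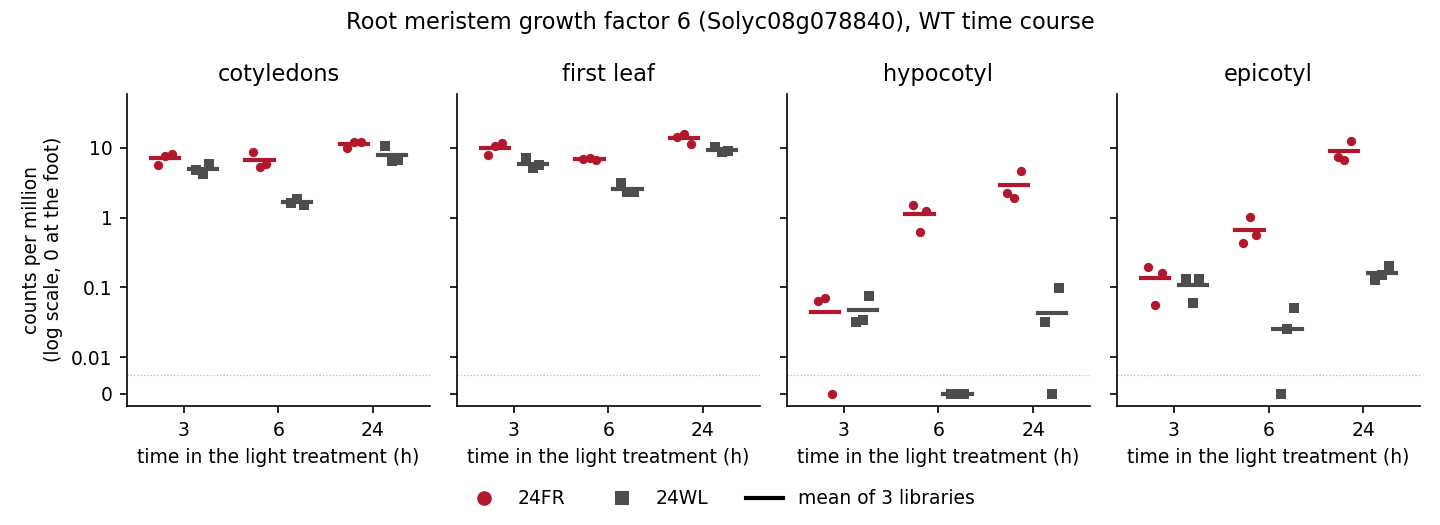
*RGF6* level (CPM, log axis with 0 at the foot) in each WT library by organ and time, 24FR left of 24WL, with bars at the group means. In hypocotyl and epicotyl the 24WL libraries stay at or under 0.202 CPM and the 24FR libraries reach 4.61 and 12.4 CPM at 24 h, while in cotyledons and first leaf both lights hold the RNA at every time.

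The response of *RGF6* grew between 3 and 24 h in the stem. The light response (log2 fold change of 24FR against 24WL) at 24 h exceeded that at 3 h by 5.43 ± 0.951 in the epicotyl (adjusted p = 1.10e-05, 19.2% of genes with a larger response) and by 5.91 ± 1.53 in the hypocotyl (adjusted p = 0.00717, 5.36% of genes). The hypocotyl value rests on single counts at 3 h and was lost without the third 24WL hypocotyl sample at 3 h (5.48, adjusted p = 0.0697). In cotyledons the difference was -0.03 ± 0.376 (adjusted p = 0.977) and in the first leaf -0.19 ± 0.364 (adjusted p = 0.972).

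In the leafy organs *RGF6* was present in both lights, and its clearest response fell at 6 h. In cotyledons at 6 h the 24FR libraries held 8.75, 5.36 and 5.77 CPM (177, 108 and 98 counts), against 1.604, 1.87 and 1.499 CPM in 24WL (23, 36 and 31 counts), a log2 fold change of 2.00 ± 0.303 (adjusted p = 1.18e-06). In the first leaf they held 6.95, 7.16 and 6.71 CPM, against 3.10, 2.31 and 2.30 CPM in 24WL, 1.43 ± 0.278 (adjusted p = 1.56e-04). In both organs the groups were fully apart at 6 h. At 3 h the cotyledons held 5.76, 7.69 and 8.27 CPM in 24FR, against 4.87, 4.24 and 5.78 CPM in 24WL, and the groups overlapped (0.54 ± 0.274, adjusted p = 0.279). The first leaf at 3 h held 7.85, 10.5 and 11.6 CPM in 24FR, against 7.04, 5.13 and 5.72 CPM in 24WL, without overlap but short of the threshold (0.75 ± 0.262, adjusted p = 0.0920). At 24 h the cotyledons held 10.02, 12.0 and 12.0 CPM in 24FR, against 10.6, 6.55 and 6.75 CPM in 24WL (0.51 ± 0.261, adjusted p = 0.141). The first leaf held 14.1, 15.7 and 11.3 CPM in 24FR, against 10.2, 8.72 and 9.02 CPM in 24WL (0.56 ± 0.254, adjusted p = 0.192). All 4 of these estimates at 3 and 24 h were above 0 and none passed the test, so a difference of that size was not resolved by 3 samples a group.

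The 24WL level of *RGF6* in these organs was itself lowest at 6 h, the latest hour of the day sampled. In 24WL cotyledons it stood at 4.96 ± 0.771 CPM at 3 h, 1.66 ± 0.189 CPM at 6 h and 7.96 ± 2.27 CPM at 24 h (SD, n = 3 each). In 24WL first leaves it stood at 5.96 ± 0.979, 2.57 ± 0.457 and 9.30 ± 0.759 CPM at the same times. Compared with 3 h, the 6 h level was lower by a log2 difference of -1.58 ± 0.310 in cotyledons (adjusted p = 2.66e-05, 4.94% of genes lower) and of -1.21 ± 0.280 in the first leaf (adjusted p = 3.72e-04, 3.47% of genes lower). The 24 h level exceeded that at 6 h by 2.26 ± 0.303 in cotyledons (adjusted p = 5.58e-09, 8.84% of genes higher) and by 1.85 ± 0.277 in the first leaf (adjusted p = 9.85e-08, 7.74% of genes higher). These comparisons with 6 h were chosen after seeing the levels. In 24FR the cotyledon level was 7.24 ± 1.32, 6.63 ± 1.85 and 11.3 ± 1.13 CPM at 3, 6 and 24 h, and that of the first leaf 9.999 ± 1.94, 6.94 ± 0.224 and 13.7 ± 2.22 CPM.

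The organs differed far more in 24WL than in 24FR at 24 h, but not at 3 h. Cotyledons exceeded hypocotyl at 24 h by 1.95 on the log2 scale in 24FR (adjusted p = 8.03e-09, 19.2% of genes higher) and by 7.33 ± 0.475 in 24WL (adjusted p = 9.00e-20, 19.7% of genes higher). Those 24WL hypocotyls held 1, 0 and 3 counts, at or under the floor, so the size of the 24WL difference is uncertain. The first leaf then exceeded the epicotyl by 0.63 in 24FR (adjusted p = 0.0205, under the fold threshold) and by 5.80 in 24WL (adjusted p = 2.53e-19, 17.1% of genes higher). At 3 h cotyledons exceeded hypocotyl by 7.18 ± 0.479 in 24FR (adjusted p = 2.55e-19, 21.3% of genes higher) and by 6.62 ± 0.495 in 24WL (adjusted p = 2.09e-17, 20.7% of genes higher). Hypocotyls at 3 h held 2, 2 and 0 counts in 24FR and 1, 1 and 2 in 24WL, under the floor. The first leaf exceeded the epicotyl at 3 h by 6.18 in 24FR (adjusted p = 5.78e-20, 18.5% of genes higher) and by 5.74 in 24WL (adjusted p = 1.19e-17, 17.9% of genes higher). The test of the difference in light response gave a smaller response in cotyledons than in hypocotyl at 24 h, by -5.38 ± 0.615 (adjusted p = 7.93e-09, 9.69% of genes with a smaller response). It also gave a smaller response in the first leaf than in the epicotyl, by -5.17 ± 0.472 (adjusted p = 1.24e-12, 19.6% of genes). These are differences on the log2 scale. In 24WL and 24FR at 24 h the group means were 7.96 and 11.3 CPM in cotyledons and 0.043 and 2.91 CPM in hypocotyl. At 3 h the differences in response between these organs lay between -0.32 and 0.56, with adjusted p from 0.911 to 0.999. At 24 h the responses of cotyledons and first leaf were not distinguishable (-0.04 ± 0.364, adjusted p = 0.983). Ordered by level, the 24FR first leaf at 24 h was the highest of the 24 WT groups and the 24FR epicotyl at 24 h stood at rank 5 (8.86 ± 3.07 CPM, SD, n = 3), overlapping its neighbours, between the 24WL first leaf and the 24WL cotyledons of the same time. The libraries of neighbouring groups overlapped all the way down to the 24WL first leaf at 6 h, and gaps opened on both sides of the 24WL cotyledons at 6 h and under the 24FR epicotyl at 6 h (0.673 ± 0.305 CPM).

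The mutants were compared at 6 h, to ask which of the responses needed the 4 mutated *PIF* genes. *FPF1* rose in *slpif8a* cotyledons and stayed far lower in *slpifq*. The 24FR cotyledons held 1.28, 1.93 and 1.54 CPM in *slpifq* (27, 33 and 28 counts), 13.3, 13.6 and 17.3 CPM in *slpif8a* (293, 268 and 441 counts) and 28.9, 14.9 and 13.6 CPM in WT on the scale of the genotype table. All 3 *slpifq* libraries lay under all 6 others, and those of *slpif8a* and WT overlapped. The *slpifq* level was 9.53-fold lower than that of *slpif8a* (log2 difference of -3.22 ± 0.400, adjusted p = 2.18e-06, 0.584% of genes lower). As a description only, it was 12.5-fold lower than that of WT. The light response was still called in both mutants. In *slpif8a* cotyledons 24WL held 1 count in each library, giving a ratio of summed counts of 351 with a counting interval of 120 to 1704 (adjusted p = 9.37e-12, 1.51% of genes higher). In *slpifq* cotyledons 24WL held 0, 0 and 1 count, giving a ratio of 93.1 with an interval of 16.3 to 3717 (adjusted p = 4.01e-06, 1.63% of genes higher).

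In the first leaf *FPF1* followed the same order with smaller steps. The 24FR first leaves held 0.274, 0.650 and 0.250 CPM in *slpifq* (5, 15 and 6 counts), 1.06, 1.12 and 0.488 CPM in *slpif8a* (23, 25 and 12 counts) and 1.23, 0.922 and 2.06 CPM in WT. In *slpif8a* the 24WL libraries held 0, 2 and 0 counts, a ratio of 26.0 with an interval of 6.88 to 219 (adjusted p = 5.23e-04, 0.67% of genes higher). In *slpifq* they held 5, 0 and 3 counts, so the lights overlapped and the log2 fold change of 1.52 ± 0.707 was not called (adjusted p = 0.290, 0.149% of genes higher). *slpifq* and *slpif8a* overlapped in 24FR and did not differ past the threshold (-1.15 ± 0.508, adjusted p = 0.540). In 24FR the *slpifq* level was 3.43-fold lower than that of WT, with no overlap, as a description. The stem organs again held no signal, with 34 of 36 libraries of the 3 genotypes at 0 and at most 1 count in the others.

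**Figure D3:**
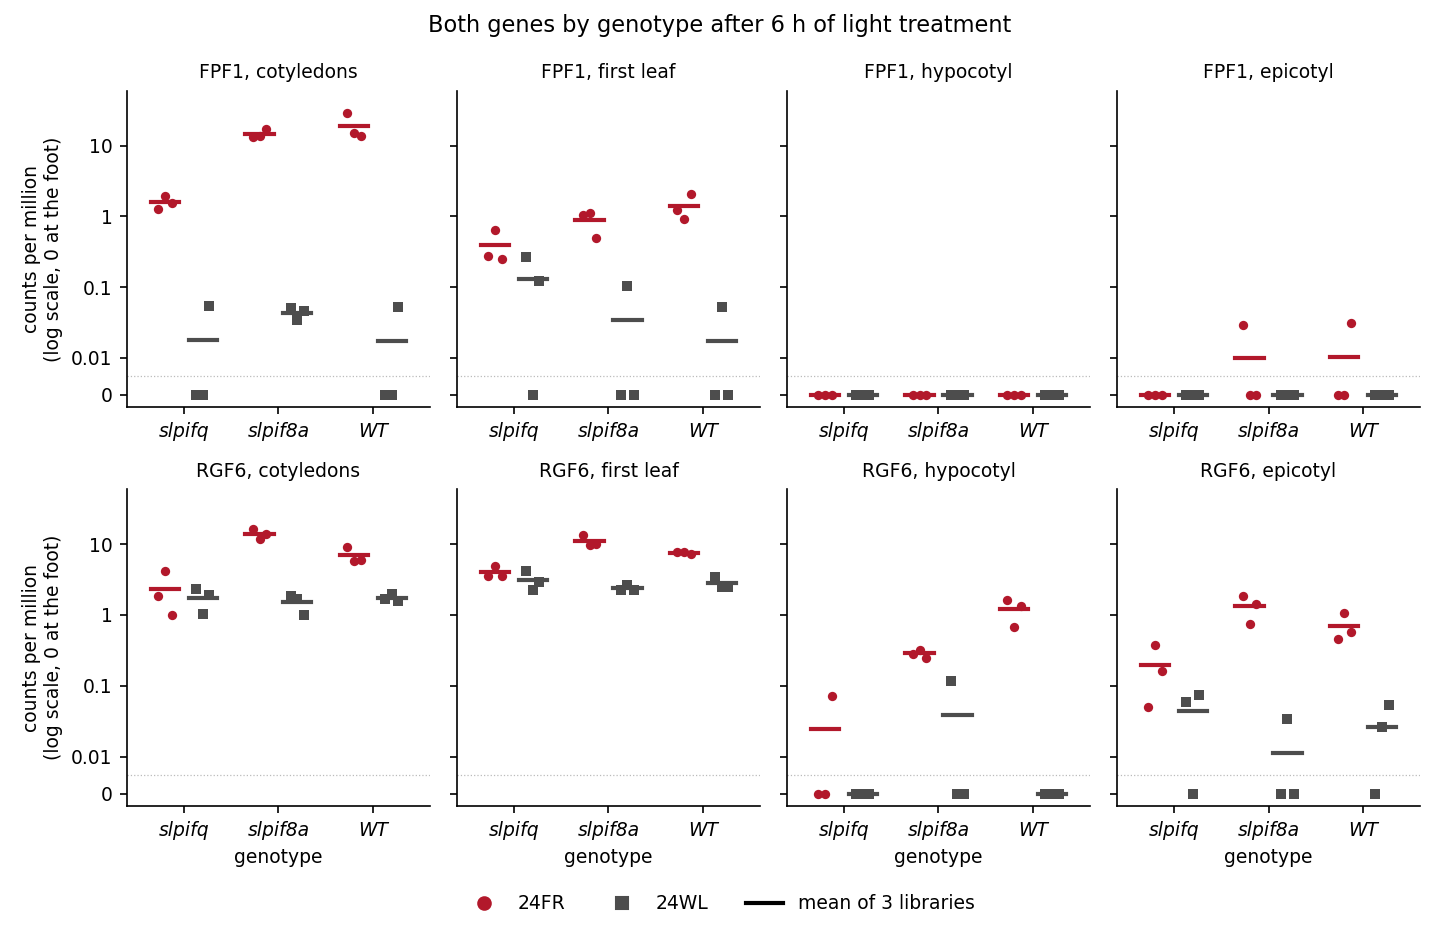
Levels of *FPF1* and *RGF6* (CPM, log axis with 0 at the foot) in each library at 6 h by organ, with *slpifq*, *slpif8a* and WT in that order, 24FR left of 24WL, and bars at the group means. In 24FR cotyledons the *slpifq* libraries hold 1.28 to 1.93 CPM of *FPF1* and 0.992 to 4.16 CPM of *RGF6*, below all *slpif8a* libraries of both genes.

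*RGF6* responded in all 4 organs of *slpif8a* and passed the test in none of *slpifq*. In *slpif8a* cotyledons 24FR held 16.4, 11.7 and 13.9 CPM, against 1.87, 1.69 and 1.01 CPM in 24WL (log2 fold change of 3.20 ± 0.405, adjusted p = 4.75e-08). The *slpif8a* first leaf held 13.5, 9.80 and 10.04 CPM in 24FR, against 2.24, 2.66 and 2.23 CPM in 24WL (2.22 ± 0.389, adjusted p = 1.35e-04). The *slpif8a* epicotyl held 63, 28 and 52 counts in 24FR, against 0, 1 and 0 counts in 24WL, a ratio of 111 with an interval of 19.7 to 4429 (adjusted p = 2.79e-07, 1.48% of genes higher). The *slpif8a* hypocotyl held 11, 12 and 9 counts in 24FR, against 4, 0 and 0 in 24WL (2.81 ± 0.819, adjusted p = 0.0137, 1.17% of genes higher). That call was lost without the second or the third of its 24WL samples (adjusted p = 0.0853 and 0.0722).

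In *slpifq* cotyledons 24FR held 1.85, 4.16 and 0.992 CPM of *RGF6*, against 2.32, 1.04 and 1.92 CPM in 24WL, and the groups overlapped fully (0.41 ± 0.420, adjusted p = 0.520). The *slpifq* first leaf held 3.61, 4.99 and 3.55 CPM in 24FR, against 4.17, 2.23 and 2.94 CPM in 24WL (0.38 ± 0.385, adjusted p = 0.657). The *slpifq* epicotyl held 2, 14 and 5 counts in 24FR, against 2, 0 and 2 in 24WL (2.11 ± 0.888, adjusted p = 0.162, 0.326% of genes higher). The *slpifq* hypocotyl held 0, 0 and 2 counts in 24FR and none in 24WL, so a response was not detectable at this depth (0.699% of genes higher).

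**Figure D4:**
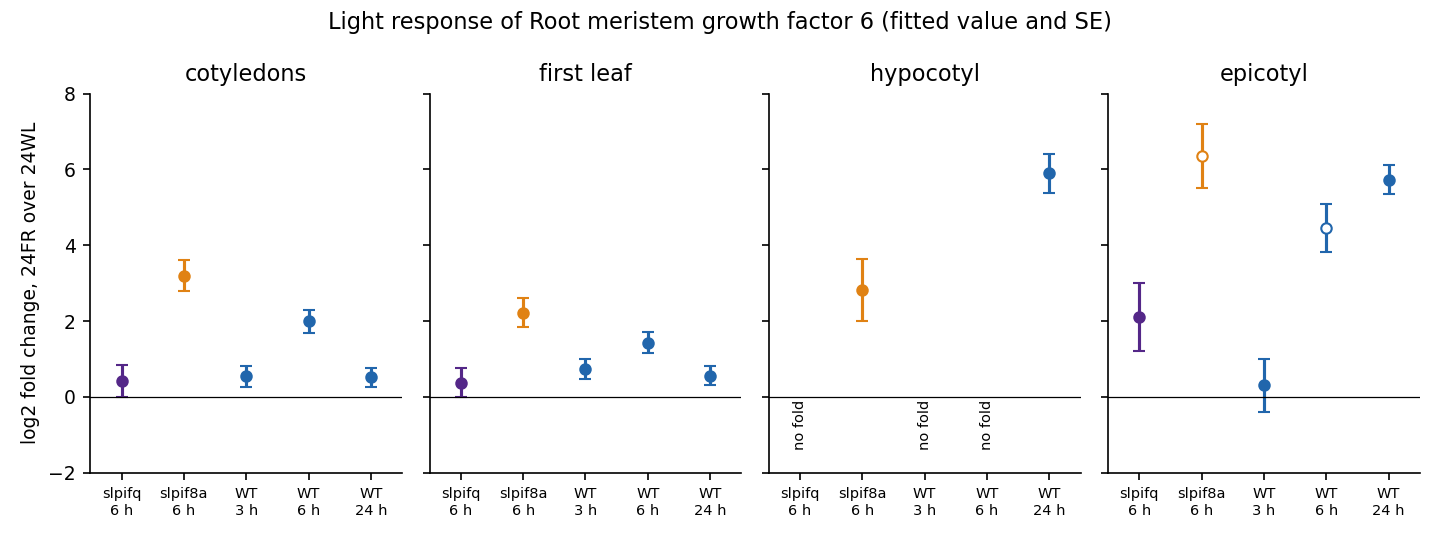
Light response of *RGF6* (log2 fold change of 24FR against 24WL, with bars of 1 SE) by organ, for *slpifq* and *slpif8a* at 6 h and for WT at 3, 6 and 24 h. Open symbols mark contrasts whose 24WL libraries hold at most 3 counts in all, and no point is drawn where 24WL holds none or both groups lie under the floor. The *slpif8a* points at 6 h lie between 2.22 and 3.20 in cotyledons and first leaf and those of *slpifq* at 0.41 and 0.38, while the WT epicotyl and hypocotyl reach 5.73 and 5.89 at 24 h.

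Between the mutants in 24FR, *slpifq* was lower than *slpif8a* in cotyledons by a log2 difference of -2.60 ± 0.394 (adjusted p = 1.09e-05) and in the epicotyl by -2.75 ± 0.510 (adjusted p = 8.78e-04, 0.286% of genes lower). In the first leaf the difference of -1.45 ± 0.371 fell short (adjusted p = 0.0588, 0.103% of genes lower), although the libraries did not overlap. In the hypocotyl, 2 counts in *slpifq* stood against 32 in *slpif8a*, a ratio of 13.0 with an interval of 3.32 to 112 (adjusted p = 0.0497, 0.378% of genes lower), and the call was lost without any of 5 of the 6 samples (highest adjusted p of 0.303 without the first *slpifq* sample). The light response itself differed between *slpifq* and *slpif8a* in cotyledons (-2.79 ± 0.577, adjusted p = 0.00393, 1.68% of genes with a smaller response), a comparison added after seeing the levels. Fitted on the cotyledon libraries alone it was -2.75 with an adjusted p of 0.134.

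Compared with WT, the mutant responses of *RGF6* were not resolved in cotyledons and first leaf. For the stem organs such differences are not given. There the WT 24WL libraries held 0, 1 and 2 counts in the epicotyl and 0 in the hypocotyl. The light response in cotyledons differed from that of WT by -1.58 ± 0.584 in *slpifq* (adjusted p = 0.0947) and by 1.21 ± 0.563 in *slpif8a* (adjusted p = 0.578). In the first leaf the differences were -1.05 in *slpifq* (adjusted p = 0.672) and 0.79 in *slpif8a* (adjusted p = 0.868). The levels in 24FR were compared with WT after they had been seen. In cotyledons *slpifq* was lower by -1.60 ± 0.393 (adjusted p = 0.00499, 0.659% of genes lower), a call lost without the third of its 24FR samples (adjusted p = 0.0620) and in the fit of cotyledons alone (adjusted p = 0.0597). In the same organ *slpif8a* held 14.01 ± 2.37 CPM and WT 7.02 ± 1.96 CPM (SD, n = 3 each), without overlap but short of the threshold (1.00 ± 0.363, adjusted p = 0.139). In the epicotyl *slpifq* was lower than WT by -1.82 ± 0.536 (adjusted p = 0.0272, 0.458% of genes lower), and that call was lost without WT sample 2 or 3 (adjusted p = 0.181 and 0.0533) or *slpifq* sample 1 or 3 (0.218 and 0.109). It was also lost in the fit of the epicotyl alone (adjusted p = 0.0542) and with limma on log2(CPM + 1) (-0.50, adjusted p = 0.146). In the hypocotyl, as a description only, 24FR held 2 counts in *slpifq* and 32 in *slpif8a*, against 110 in WT, where *RGF6* was 54.8-fold lower in *slpifq* (counting interval of 14.8 to 458) and 4.20-fold lower in *slpif8a*. The *slpif8a* level was thus under that of WT in the hypocotyl, while in the epicotyl it was 1.35 ± 0.559 CPM against 0.700 ± 0.318 CPM in WT, with overlap.

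FPF1 being tied to gibberellin in Arabidopsis, 2 lists of tomato gibberellin genes were read beside it. They were taken from the gene annotation with earlier results of these data known. Of the 11 genes for gibberellin synthesis, inactivation and receptors, 10 were tested, and in WT 24FR cotyledons 2 rose and 2 fell at 3 h, 2 rose and 3 fell at 6 h, and 4 rose and 3 fell at 24 h. Of all genes, 0.819%, 1.56% and 1.59% rose and 0.464%, 1.52% and 0.979% fell at these times. The list medians were -0.29, -0.91 and -0.68 on the log2 scale, against -0.00460, -0.0125 and -0.00837 over all genes. Since the list pools genes that make gibberellin with genes that inactivate it, its median gives no direction for gibberellin. Gibberellin 20-oxidase-2 (Solyc06g035530), which makes precursors of active gibberellin, rose most at 3 h, with group means of 23.7 CPM in 24FR and 0.121 CPM in 24WL (log2 fold change of 7.53, adjusted p = 9.79e-23). Of the 10 genes annotated as gibberellin-regulated, 2 rose and 1 fell in 24FR cotyledons at 3 h (median 0.13), 5 rose at 6 h (median 1.06) and 4 rose at 24 h (median 1.16), beside the same shares and medians of all genes. Solyc02g089350 rose by 2.43 at 3 h (adjusted p = 1.97e-15) and Solyc03g113910 fell by 1.36 (log2 fold change of -1.36, adjusted p = 0.00142). In the first leaf 1, 2 and 1 of these 10 rose at 3, 6 and 24 h, where 0.492%, 1.04% and 0.607% of all genes rose, and the list medians were 0.11, 0.72 and 0.52 against -0.0193, -0.0132 and -0.000274 over all genes. Unlike *FPF1*, 20-oxidase-2 also rose in both stem organs at 3 h, by 7.15 in the hypocotyl and 6.67 in the epicotyl.

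The genes whose pattern was most like that of each gene were ranked by the correlation of log2(CPM + 1) over the 24 WT group means, and the same correlation was taken over the 16 mutant group means. These group means share the organ and light structure and the scaling of their table, so the values are descriptions. For *FPF1* the most alike were Solyc01g080880, a protein kinase domain protein (r = 0.892 over WT and 0.902 over mutant groups), *SlYUC9* (Solyc06g083700, 0.887 and 0.886), a myb-related gene (Solyc05g008240, 0.887 and 0.775), Solyc04g051470 (0.873 over WT groups) and a cytokinin oxidase (*CKX5*, Solyc04g016430, 0.866 and 0.648). For *RGF6* they were a membrane-associated kinase regulator (Solyc03g007775, 0.932 and 0.937), Solyc03g044010 (0.924 and 0.750), a 3-ketoacyl-CoA synthase (Solyc03g005320, 0.914 and 0.881), Solyc07g006300 (0.912 and 0.861) and a subtilisin-like protease (Solyc07g056170, 0.908 and 0.864). The correlation between *FPF1* and *RGF6* was 0.517 over the WT groups and 0.716 over the mutant groups.

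**Figure D5:**
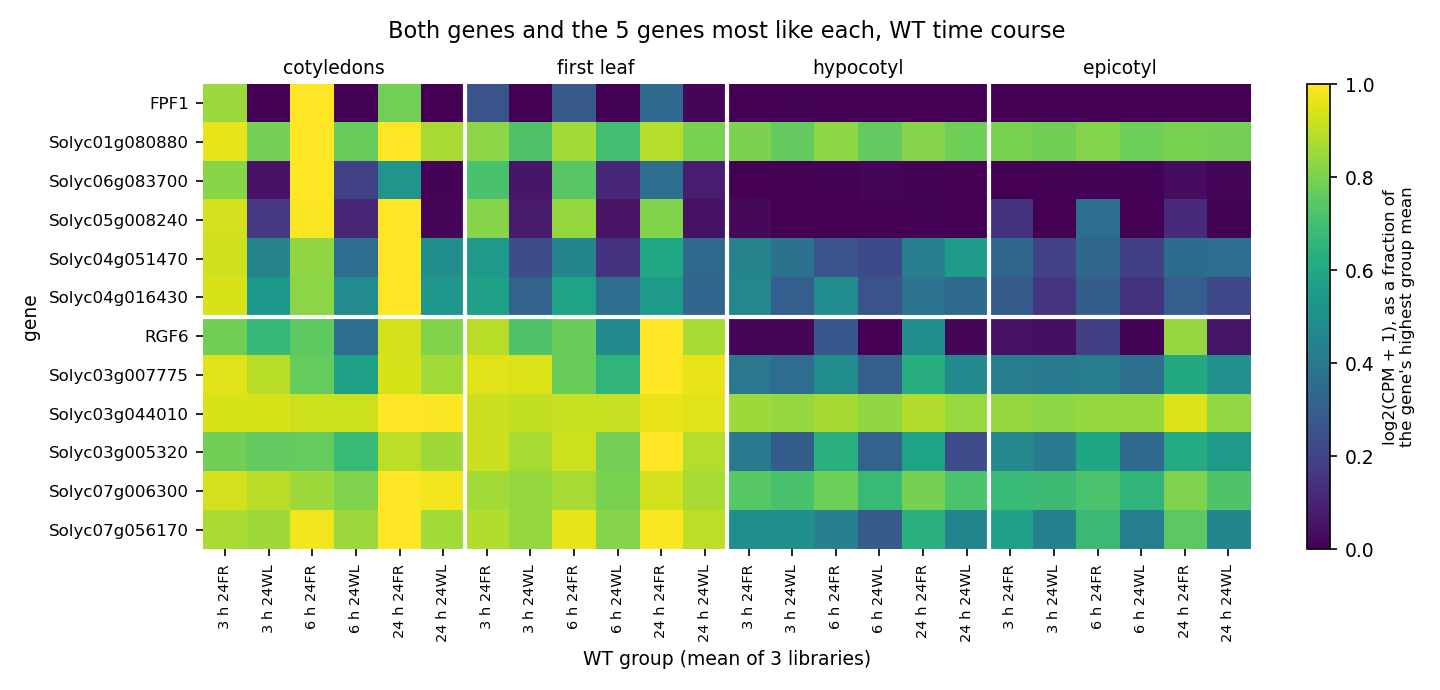
Heat map of the 24 group means of the WT time course (columns, by organ, time and light, 24FR left of 24WL) for *FPF1*, *RGF6* and the 5 genes most like each (rows), coloured by log2(CPM + 1) as a fraction of the highest group mean of that gene. The 5 genes beside *FPF1* reach correlations of 0.866 to 0.892 and those beside *RGF6* of 0.908 to 0.932.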

How the data were processed

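Polyadenylated RNA of each sample was sequenced from stranded libraries with single-end reads of 100 bp. Per the labels and the study's methods, the authors merged 2 runs per library, aligned the reads to the tomato genome SL4.0 with STAR 2.7.9a (alignIntronMax 2000, outFilterMismatchNmax 10) and counted them per gene on the reverse strand with HTSeq 0.13.5 in intersection-strict mode. CASAVA 1.8.2 and edgeR 3.40.2 are also named in the submitters' processing notes. The deposited tables hold raw counts, 1 table for the WT time course and 1 for the genotypes at 6 h, each of 72 libraries, with the 24 WT libraries at 6 h identical in both. The deposited normalized tables, a signal in CPM made by the authors with edgeR, were used only for the limma fits described below. They hold 17161 genes for the time course and 19169 for the genotypes. The limma fits therefore differ from the others in their input as well as in the test. The 5 rows that name no gene, 8.54% to 17.0% of the counts of a library, were left out.

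Both count tables were analysed separately in R 4.3.3 with edgeR 4.0.16. The filter kept genes that exceeded 5 CPM of the uncorrected library size in 3 or more libraries (17469 in the time course and 17460 in the genotype table). Counts were scaled by TMM and fitted with 1 mean per organ, time, genotype and light, contrasts went through the quasi-likelihood test of edgeR, and p-values were adjusted by Benjamini-Hochberg within each contrast, over every gene tested. Every adjusted p in the text is of this kind unless another tool is named, every test is two-sided, and ± after a log2 value is its standard error. A call needed an adjusted p below 0.05 together with a log2 change larger than 1 in size, and differences of responses only the p. A fold against a group with no count was computed against its floor of 3 counts per library. Where a group held 1 to 3 counts, the ratio of summed counts is given with its exact 95% interval. Such intervals and floors cover counting error only, since reads without molecular identifiers are not independent molecules. The sources do not say whether the 3 samples of a group came from separate growth batches, so p-values measure the spread between these pools of seedlings.

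Fits were run on simulated counts with known changes of expressed genes and 1 fixed dispersion. That trial did not include a gene absent in 24WL and expressed in 24FR, so it does not bear on such cases. Alternatives were another filter or none, DESeq2 1.42.0 size factors and Wald test, each organ fitted alone, the replicate number as a block, limma 3.58.1 on log2(CPM + 1) and log2(CPM + 0.1), and leaving out each library in turn, the last with the dispersion trend of the full fit kept. Besides the 2 genes, the text names the 5 genes with the highest correlation to each over the 24 WT group means, the mutated genes, and the extreme members of the gibberellin lists. The genes, lists and comparisons were chosen with earlier results of these data known. No sequence is shown, because the identifiers matched 0 genes of the reference table used here.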

Additional observations from a re-analysis of the deposited data

Results flagged for a closer look

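The light response of *RGF6* (24FR against 24WL, log2 scale) differed between groups in 5 comparisons by a test of the difference itself. It was larger at 24 h than at 3 h in the WT epicotyl (5.43 ± 0.951, SE, adjusted p = 1.10e-05 by edgeR's quasi-likelihood test) and in the WT hypocotyl (5.91 ± 1.53, adjusted p = 0.00717). All 3 epicotyl libraries in 24FR at 24 h were above all 24WL libraries of that time, while at 3 h the lights overlapped. The hypocotyl value sets 248 counts in 24FR and 4 in 24WL at 24 h beside 4 and 4 counts at 3 h, and without the third 24WL sample at 3 h its adjusted p was 0.0697.

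At 24 h the response was smaller in WT cotyledons than in WT hypocotyl (-5.38 ± 0.615, adjusted p = 7.93e-09, with 1, 0 and 3 counts in 24WL hypocotyls). It was also smaller in the WT first leaf than in the WT epicotyl (-5.17 ± 0.472, adjusted p = 1.24e-12). At 6 h it was smaller in *slpifq* than in *slpif8a* cotyledons (-2.79 ± 0.577, adjusted p = 0.00393), where 24FR held 2.33 ± 1.64 CPM in *slpifq* and 14.01 ± 2.37 CPM in *slpif8a* (SD, n = 3 each). That comparison was added after seeing the levels, and fitted on the cotyledon libraries alone it was -2.75 with an adjusted p of 0.134. With 3 samples in each group, single samples were not searched for outliers.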

How the results depend on the processing

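Of 92 tested results, 75 kept their direction and their side of the threshold under all 8 other settings, and the rest are given here as log2 values. With limma on log2(CPM + 1), the following values came under the fold threshold. The light response of *RGF6* came to 0.69 in the WT epicotyl at 6 h and 0.31 in the *slpif8a* hypocotyl. That of *FPF1* in the *slpif8a* first leaf came to 0.85. For *RGF6* in 24FR, *slpifq* against *slpif8a* came to -0.95 in the epicotyl and -0.33 in the hypocotyl. In the same light, *slpifq* against WT epicotyls came to -0.50. For *RGF6* in 24WL, the first leaf at 6 h against 3 h came to -0.96 and the epicotyl at 24 h against 6 h to 0.18. With limma and pseudocounts of 1 and 0.1, the hypocotyl minus epicotyl response at 24 h turned to -1.20 (adjusted p = 2.71e-04, past the threshold in the other direction) and -0.71 (adjusted p = 0.212), and the cotyledon response at 24 h minus 3 h to 0.023 and 0.0039. The same fits brought *RGF6* past the threshold in *slpifq* minus WT cotyledons (-1.33 and -1.67) and in *slpifq* against *slpif8a* first leaves in 24FR (-1.26 and -1.44), with a pseudocount of 1 in the response of *slpifq* minus *slpif8a* first leaves (-1.52), and with a pseudocount of 0.1 *FPF1* in the *slpifq* first leaf (1.20). The difference between the mutants in 24FR first leaves also passed with DESeq2 (-1.45), with organs fitted alone (-1.45) and with the replicate block (-1.44). The hypocotyl difference between the mutants was lost with no filter (-3.45), a filter at 1 CPM (-3.45), DESeq2 size factors (-3.44) and organs alone (-3.49), where the *slpif8a* hypocotyl response was lost too (2.83), as were *slpifq* against WT in 24FR in cotyledons (-1.59) and epicotyl (-1.82) and the *slpifq* minus *slpif8a* response in cotyledons (-2.75). DESeq2 called *RGF6* lower in 24WL hypocotyl than epicotyl at 24 h (-1.84). The cause of these moves was not tested.

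Leaving out 1 library in turn gave, for *RGF6*, -0.028 to 0.70 in the epicotyl at 3 h, 5.40 to 7.09 for the hypocotyl response at 24 h minus 3 h and -0.17 to 0.22 for that of cotyledons. It gave -0.72 to 0.19 for the hypocotyl minus epicotyl response at 3 h and -0.34 to 1.34 at 24 h, -0.17 to 0.21 for cotyledons minus first leaf at 24 h, and -2.94 to -1.26 for the 24WL hypocotyl against epicotyl at 24 h. In the mutants it gave 2.24 to 5.98 for the *slpif8a* hypocotyl, -0.28 to 0.77 for *slpifq* cotyledons, -5.98 to -2.90 for *slpifq* against *slpif8a* hypocotyls and -2.27 to -1.22 for *slpifq* minus WT cotyledons.

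The replicate numbers did not pair 24FR with 24WL samples in a uniform way, and some shared variation by number is possible. Deviations of same-numbered samples correlated at -0.256 to 0.457 (median 0.134) in the time course. In the genotype table they correlated at -0.283 to 0.641 (median 0.238). In each table, 2 of 12 comparisons had all 3 pairs above 0.1. The block changed 1 of 92 calls, the first leaf difference above (-1.44). Of 82 comparisons with at least 20 called genes, the number called moved by over 1.5 times in 3 with no filter (at most 3989 against 2471), in 11 with DESeq2 (at most 101 against 30), in 18 with organs alone (105 against 30 to 0 against 28), in 9 with the block (at most 123 against 54), in 24 with limma and a pseudocount of 1 (72 against 35 to 96 against 198) and in 3 with a pseudocount of 0.1 (at most 51 against 30).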
